A study of Bos taurus with 12 samples.

Results

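A block of chromosome 14 in the bull sperm methylome holds 448 of the 7290 tiles that the authors' deposited table lists for a comparison of low BFI with high BFI sperm. A tile is a window of 500 bp, and tile starts lie on a grid of 100 bp. The members are all listed tiles on chromosome 14 whose start lies from 13500000 to 13850000. The sample labels give 12 sperm samples of cattle (Bos taurus), 6 titled low BFI and 6 titled high BFI, and describe all of them as sperm cells of male animals. They do not spell out BFI, and breed, age, treatment and the number of bulls are not stated in the sources used here. The assay was EM-seq, a form of enzymatic methylation sequencing: enzymes convert unmethylated cytosines, which are then sequenced as T, while methylated cytosines are still read as C. The submitters' processing notes name the builds ARS-UCD1.2 and bosTau9, and positions are those of the authors' deposited table.

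Sperm carry a DNA methylation pattern that is erased and rewritten during germ cell development. In mature sperm most CpG sites are methylated, while CpG islands, which are short stretches rich in CpG sites, are mostly unmethylated. Intergenic and intronic DNA outside such islands is generally methylated, with repeated sequences as a known exception in cattle sperm. In this field a differentially methylated region is a stretch where neighbouring CpG sites differ in the same direction between groups.

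The values are the authors' own comparison: for each tile a methylation difference between the groups, read as percentage points (pp), with a p-value and a q-value. The direction of subtraction is stated by neither the labels nor the headers. Signs are therefore those of the table, and it stays unsaid in which group methylation was higher. The table has no column for a single sample. The methylation level and depth behind each tile are therefore unknown, the spread between bulls could not be computed, and the labelled cell type could not be checked against markers. The block was chosen by the density of listed tiles and of called tiles in this same comparison, so its values are a description, and no test was run on them. The sources used here do not state whether the authors' test took variation from bull to bull into account.

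The block showed almost only negative differences. Of its 448 tiles in the authors' deposited table, 435 were negative and 13 positive, and the median difference was -5.28 pp, with values from -15.1 to 2.26. Over all 7290 listed tiles the median was -0.95 pp and 71.6% of tiles were negative. The rest of chromosome 14 had 67 listed tiles, with a median of -0.0030 pp and 34 of 67 negative in the authors' deposited table. The middle of the block's distribution lay between -7.48 and -3.01 pp (quartiles). A tile at the block's upper quartile was thus still more negative than the median listed tile.

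A tile was called where the deposited q was under 0.05 and the difference was at least 10 pp in either direction. Of the 448 tiles 49 were called (10.9%), against 2.78% of all listed tiles, and all 49 were negative, against 2.63% of all listed tiles that were called and negative. The block thus holds 49 of the 203 called tiles of the table. A difference of at least 5 pp at the same q was found in 235 tiles of the block (52.5%), against 15.4% of all listed tiles. A q under 0.05 at any difference was found in 434 tiles (96.9%), against 71.8% of all listed tiles. None of these shares is independent of the choice of the block. The smallest called difference had a size of 10.01 pp and the largest one not called a size of 9.94. Just under the threshold, 19 tiles had a size from 9 to under 10 pp, and just over it, 31 tiles had a size from 10 to under 11. The threshold therefore cut through a continuous range of values.

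**Figure D1:**
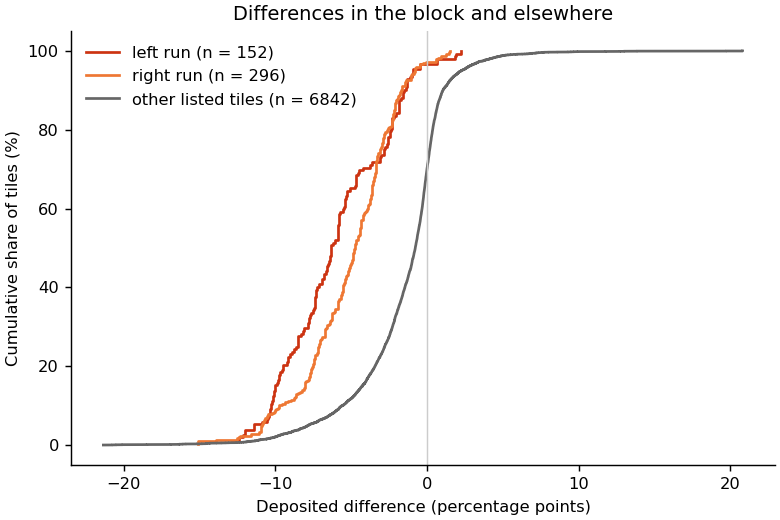
Cumulative share of tiles (vertical axis, percent) by deposited difference (horizontal axis, percentage points) for the 152 tiles of the left run, the 296 of the right run and the 6842 other listed tiles. Over most of the range both runs lie to the left of the other tiles, with medians of -6.32 and -4.75 pp.

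The tiles fell into 2 runs on either side of a gap of 112500 bp. The left run had 152 tiles from 13520201 to 13641900 and the right run 296 tiles from 13754401 to 13839000. In the left run 12.5% of the grid positions were listed and in the right run 35.2%, against 0.0304% over the table. Merged tiles covered 28400 bp of the left run (23.3% of its span) and 51000 bp of the right run (60.3%). Nothing else was listed close by. The first tile of the block, from 13520201 to 13520700, had -5.28 pp in the authors' deposited table, and the nearest listed tile before it lay 9725300 bp away, at -3.50 pp. The last tile, from 13838501 to 13839000, had -0.43 pp in the authors' deposited table, and the nearest listed tile after it lay 763800 bp away, also at -0.43. The bounds of the block are therefore set by where tiles were listed.

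The runs shared the sign of their differences and had different medians. The left run had a median of -6.32 pp, 147 of 152 tiles negative and 23 called (15.1%) in the authors' deposited table. The right run had a median of -4.75 pp, 288 of 296 tiles negative and 26 called (8.78%). The most negative tile of the left run had -12.8 pp and that of the right run -15.1, both from the authors' deposited table. The ranges of the runs overlap over most of their length. The difference between the runs was not tested, because tiles are not replicates of a condition.

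**Figure D2:**
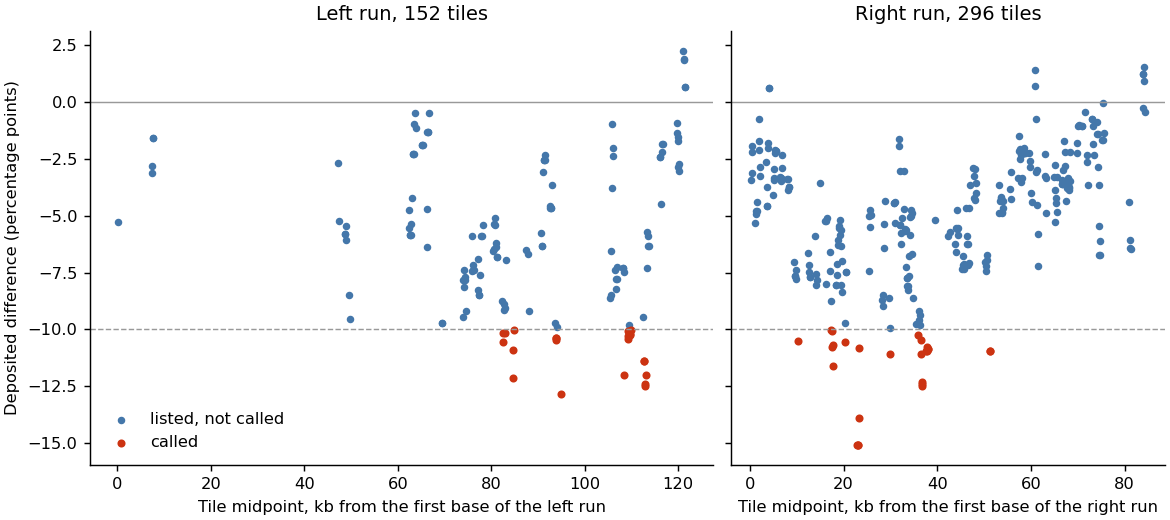
Deposited difference of each tile (vertical axis, percentage points) by the position of its midpoint (horizontal axis, kb from the first base of its run), with 49 called tiles in red and the dashed line at -10 pp. The 13 positive tiles lie in 4 loci: the last locus of either run, the first locus of the right run and the locus from 13809801 to 13817900.

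Along the block the tiles formed 25 loci, each made of listed tiles no more than 1000 bp apart. In 21 of the 25 loci every tile was negative, and 9 loci held a called tile. The median of a locus ran from -15.1 to 1.09 pp, and 14 loci had a median below -5 pp. Positive tiles were found in 4 loci only. The last locus of the left run, from 13639601 to 13641900, held 5 positive tiles of 12, and the highest, from 13641001 to 13641500, had 2.26 pp (q = 0.00332) in the authors' deposited table. The last locus of the right run, from 13838001 to 13839000, held 4 positive tiles of 6, and its median of 1.09 pp was the only positive locus median. Its highest tile, from 13838301 to 13838800, had 1.54 pp (p = 0.157, q = 0.0259) in the authors' deposited table. Besides these, positive tiles were a pair in the first locus of the right run, both at 0.62 pp, and a pair from 13815001 to 13815600, at 0.72 and 1.43 pp in the authors' deposited table. Thus 11 of the 13 positive tiles lay in the last locus of a run or the first locus of the right run. These loci are named because they held positive tiles, so the count does not show a pattern at the edges. The first locus of the left run, of 1 tile, was negative. The first locus of the right run held 47 tiles over 10600 bp, with its positive pair, from 13758201 to 13758800, well inside it. A q under 0.05 was deposited for 8 of the 13 positive tiles, of which 5 had a p of 0.05 or more.

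At the start of the left run listed tiles were few, and their differences varied widely. The locus from 13527301 to 13528100 had 4 tiles from -3.12 to -1.57 pp in the authors' deposited table. The next locus, from 13567101 to 13570300, had 8 tiles, and the authors' deposited table gives -2.65 pp at its first tile and -9.54 at its last. The locus from 13582301 to 13587100 was weakly negative, with a median of -2.29 pp over 22 tiles. After it came a locus of 2 tiles from 13589401 to 13590000, both at -9.73 pp in the authors' deposited table, the most negative locus median of the left run. From 13593901 to 13608500, the 3 loci that follow had medians of -7.52, -7.84 and -6.68 pp in the authors' deposited table. The profile therefore alternated between strongly and weakly negative loci and did not decline evenly to the edges.

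All 152 tiles of the left run were classed as distal intergenic. The feature listed as closest was a single CpG island of 564 bp, from 13698459 to 13699022, for which the table gives an observed-to-expected CpG ratio of 0.88. The island lies in the gap between the runs, 56558 bp from the last tile of the left run and 55378 bp from the first tile of the right run. No listed tile overlaps it. The left run thus has no gene feature assigned to it, and no tile says whether the island itself differed between the groups.

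The 23 called tiles of the left run made up 5 regions after called tiles of one sign within 1000 bp were joined. The first, from 13602401 to 13603300, held 3 called tiles and reached -10.6 pp (q = 2.53e-39) in the authors' deposited table. Within that region the tile from 13602601 to 13603100 had the smallest q of the left run (6.17e-46), at -9.14 pp in the authors' deposited table, and was not called. The smallest q and the largest difference therefore belonged to different tiles. The second region, from 13604501 to 13605300, reached -12.1 pp (q = 1.57e-38) in the authors' deposited table. Both of these regions lie in the same locus, with tiles of smaller size between them. The third, from 13613701 to 13615400, held 4 called tiles and the most negative tile of the run, from 13614901 to 13615400, at -12.8 pp (q = 1.03e-33) in the authors' deposited table. The fourth, from 13628401 to 13630300, was the longest of the run, at 1900 bp, and held 8 called tiles. Its tiles were close to the threshold, from -12.0 to -10.01 pp in the authors' deposited table. The fifth region, from 13632601 to 13633500, held 5 called tiles, with values from -12.5 to -11.4 pp in the authors' deposited table. All 5 regions lay 65158 to 95458 bp from the CpG island at their most negative tile.

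The right run lies over the deposited features of 3 annotated units, none of which carries a name in the table. ENSBTAG00000052622 and ENSBTAG00000050469 are listed as protein-coding genes on the minus strand. ENSBTAT00000081073 is a transcript on the plus strand, given with exons and no gene ID. What these genes do is not stated in the sources used here, and the RefSeq gene table used for names holds 0 Ensembl IDs, so neither of the 2 gene IDs could be matched to a symbol. All 3 are reported as uncertain.

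ENSBTAG00000052622 was listed as the closest gene of 124 tiles, all negative, with a median of -6.74 pp in the authors' deposited table. It accounted for 21 called tiles (16.9% of its tiles), against 2.78% called among all listed tiles. ENSBTAG00000050469 was listed for 68 tiles, of which 66 were negative and 5 called (7.35%), with a median of -3.97 pp in the authors' deposited table. ENSBTAT00000081073 was listed for 104 tiles, of which 98 were negative and none called, with a median of -3.17 pp and a lowest value of -7.19 in the authors' deposited table. The tiles listed for ENSBTAG00000052622 were thus the most negative by median, with ranges that overlap those of both neighbours.

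**Figure D3:**
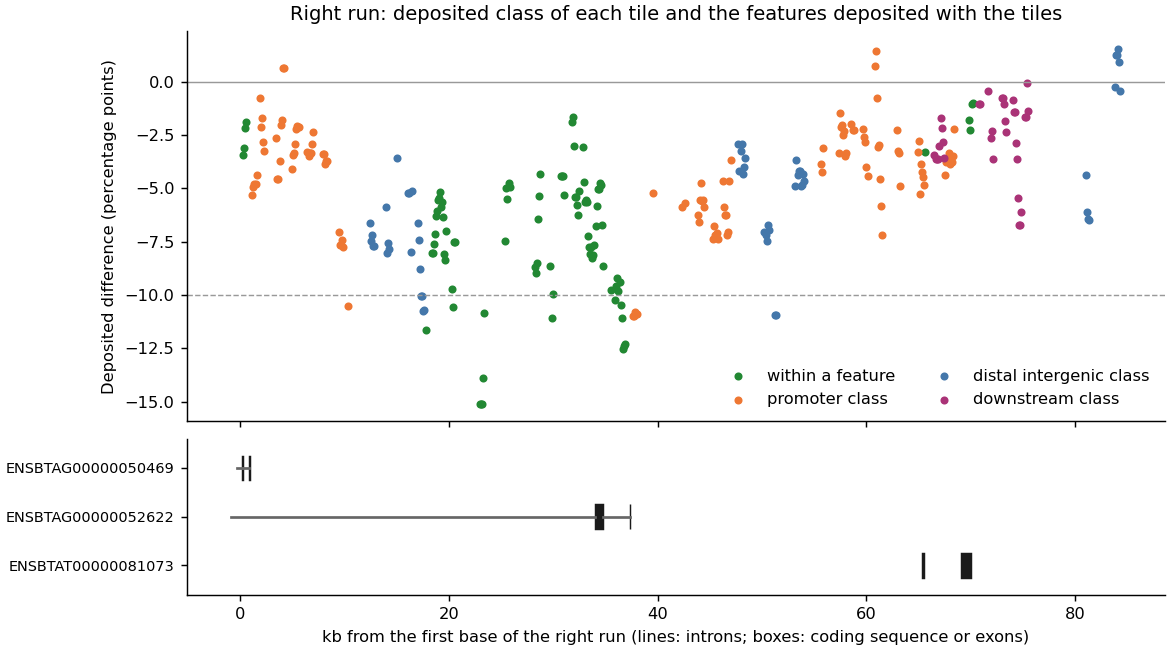
Deposited difference of the 296 tiles of the right run (vertical axis, percentage points) by the position of the midpoint (horizontal axis, kb), coloured by deposited position class, above the introns (lines) and coding sequences or exons (boxes) that the table gives. The long intron of ENSBTAG00000052622 extends under 129 tiles, including 64 classed as promoter or distal intergenic.

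The deposited features place the listed coding sequences of ENSBTAG00000050469 inside an intron of ENSBTAG00000052622. That intron runs from 13753534 to 13788409 (34876 bp). The listed coding sequences, of 106 and 63 bp, lie within it, from 13754585 to 13754690 and from 13755226 to 13755288. The full extent of ENSBTAG00000050469 is not given, so the whole gene was not placed. Each tile carries a single feature, listed as the closest. For 64 tiles the table lists the 63 bp coding sequence of ENSBTAG00000050469, 12 to 16512 bp away, and they were classed as promoter (43 tiles) or distal intergenic (21 tiles), although every base of them lies in that intron. Counted by the intron's coordinates, 129 tiles lay wholly inside it, of which 61 were listed for its own gene and 68 for ENSBTAG00000050469. Of the 129 tiles 127 were negative and 13 called, and their median was -5.51 pp in the authors' deposited table. The called count in this intron was thus 8 by the tiles listed for its own gene and 13 by position. Over the whole block 64 of 357 tiles classed as promoter, downstream or distal intergenic lay wholly inside an intron listed in the table (17.9%). Over all listed tiles, those of the block included, 228 of 5421 did (4.21%). An intron is listed only where it was the closest feature of some tile. Both shares therefore depend on how densely tiles were listed, and they are not a like comparison.

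A called region from 13771501 to 13772400 carries both kinds of class. Its 5 tiles overlap one another, and 4 were classed as distal intergenic to ENSBTAG00000050469 while the fifth was classed as within ENSBTAG00000052622. In the authors' deposited table the 4 had -10.03, -10.06, -10.8 and -10.7 pp and the fifth had -11.6. All 5 are intronic by coordinates.

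ENSBTAT00000081073 had a similar split. Its exons lie from 13819730 to 13819902 and from 13823453 to 13824431, and 18 tiles lay wholly in the 3550 bp between them. Of these, 9 were classed as downstream and 9 as promoter, and none as within. All 18 were negative, from -4.35 to -1.69 pp in the authors' deposited table.

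The most negative differences of the block lay in the long intron of ENSBTAG00000052622. Tiles starting at 13777101, 13777201 and 13777301 had the same value, -15.1 pp (q = 1.30e-48), in the authors' deposited table. The tile starting at 13777401 had -13.9 pp (q = 6.17e-46) and the one starting at 13777501 had -10.8 (q = 4.46e-23), from the authors' deposited table. The first 3 tiles share the 300 bp from 13777301 to 13777600. Nothing was listed on either side of this region of 900 bp for over 1000 bp. The next locus, from 13779501 to 13780500, had 5 tiles, with values from -7.45 to -4.72 pp in the authors' deposited table.

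Around the larger coding exon of ENSBTAG00000052622 (13788410 to 13789146, 737 bp) the values on its sides differed, but they were taken at unlike distances. The 10 tiles that share a base with the exon had -8.62 to -4.76 pp, with a median of -6.27 in the authors' deposited table, and none was called. The 5 tiles of the long intron wholly within 1000 bp of it had -8.25 to -7.24 pp, inside the exon tiles' range. Tiles only partly within that distance, starting from 13787001 to 13787401, had -5.65 to -3.05 pp. The median over the whole long intron, -5.51 pp, was less negative than that of the 10 tiles. It was more negative than the median of the 5 tiles listed for the exon itself, -5.01 pp. Only the tiles starting at 13788501 and 13788601 lie wholly in the exon, at -5.01 and -4.76 pp. Both are less negative than the 5 tiles of the long intron within 1000 bp. The 11 tiles wholly inside the short intron on the other side (13789147 to 13791729) had -12.5 to -9.19 pp in the authors' deposited table, and 6 were called. Their range does not overlap that of the exon tiles. The nearest of the 11 runs from 13789701 to 13790200, so none lies wholly within 1000 bp of the larger exon. Neighbouring tiles share bases, so the 10 and the 11 tiles are far fewer independent values than their number.

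The largest called region of the block spanned 2600 bp, from 13790101 to 13792700, with 11 called tiles. It covers part of the short intron, the smaller coding exon (13791730 to 13791785, 56 bp) and the flank beyond, which is upstream on the minus strand. In its intronic part the lowest tile, from 13790801 to 13791300, had -12.5 pp (q = 3.48e-34) in the authors' deposited table. The tile from 13790701 to 13791200 had a smaller q of 1.81e-42 at -11.1 pp in the authors' deposited table. No listed tile overlaps the smaller exon. All 5 tiles within 1000 bp upstream of it were called, and the authors' deposited table gives -11.0 to -10.8 pp for them. These 5 tiles overlap one another between 13791801 and 13792700, so they are not independent values. Further upstream 37 tiles listed for this gene, from 13793701 to 13806000, had a median of -5.88 pp, and 2 of them were called. Those 2 tiles, from 13805401 to 13806000, both had -11.0 pp (q = 8.25e-27) in the authors' deposited table, 13615 bp from the exon at the nearer tile. By position, 24 of the 26 called tiles of the right run lay in an intron of ENSBTAG00000052622 or within 1000 bp upstream of its smaller coding exon, places that held 145 of the 296 listed tiles of the run (49.0%). The share called there was 16.6%, against 8.78% over the right run. In the long intron alone it was 10.1%, near the 10.9% of the whole block. These places leave out the 10 tiles that share a base with the larger coding exon, none of which was called, and the 37 tiles further upstream. The 8.78% counts the same tiles, and 11 of the 24 called tiles belong to the region of 2600 bp. The share in these places is a description and was not tested.

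The other called regions of the right run held a single tile each, all in the long intron. They stood at 13764501 to 13765000 with -10.5 pp (q = 6.34e-18), at 13774501 to 13775000 with -10.6 (q = 3.50e-18) and at 13784001 to 13784500 with -11.1 (q = 4.88e-17) in the authors' deposited table. With them the block had 12 called regions, 5 in the left run and 7 in the right, of 500 to 2600 bp.

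By deposited class, 206 tiles of the block were distal intergenic (46.0%), 118 promoter (26.3%), 91 within a feature (20.3%) and 33 downstream (7.37%). Among all listed tiles the shares were 38.3%, 10.2%, 25.6% and 25.9%. All 91 tiles within a feature were negative, with a median of -6.42 pp in the authors' deposited table, while the median of the within class over all listed tiles was -0.26. Promoter tiles of the block had a median of -3.76 pp and distal intergenic ones -6.14, from the authors' deposited table. By position, 43 of these promoter tiles and 21 of these distal intergenic tiles lay wholly in the long intron of ENSBTAG00000052622. The 33 downstream tiles were the least negative by median, at -2.33 pp in the authors' deposited table, and none was called. Most or all tiles were thus negative in each of the 4 classes.

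Neighbouring tiles were not independent measurements. In 47 of the 448 tiles the difference and p-value were identical to those of the overlapping tile before (10.5%), against 232 of all listed tiles (3.18%). The 448 tiles held 401 distinct values and the 49 called tiles 42. Among 343 pairs of tiles with starts 100 bp apart the Pearson correlation of the difference was 0.96, which is a description of tiles that share most of their bases. It was 0.50 over 738 pairs with starts 500 to 1000 bp apart, 0.61 over 1459 pairs 1100 to 2000 bp apart, 0.36 over 3812 pairs 2100 to 5000 bp apart and 0.19 over 5389 pairs 5100 to 10000 bp apart, all from the same 12 samples. Over 16890 pairs 20000 to 40000 bp apart it was -0.15. The correlation between tiles that share no base was thus lower at longer distances, though not evenly, since it was higher at 1100 to 2000 bp than at 500 to 1000 bp. When tiles were taken from the left so that none shared a base, 122 remained, of which 120 were negative and 12 called (9.84%). The same picking over all listed tiles left 2153, of which 1492 were negative (69.3%) and 50 called (2.32%).

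Among stretches of the table with many listed tiles, the runs stood near the negative end. Joining listed tiles no more than 50000 bp apart gave 15 blocks with at least 100 tiles. By median difference the left run was first and the right run was 3rd in order, with a block on chromosome 6 (5433701 to 5459700, median -5.66 pp in the authors' deposited table) between them. By share of called tiles the left run came after that block, at 15.1% against 19.8%, and the right run was 4th, after a block on chromosome X (123863501 to 124075800, 13.8%). The median of the 15 block medians was -1.86 pp. The chromosome X block had a less negative median, -2.23 pp in the authors' deposited table, with a lowest tile of -16.7. In the right run the lowest tile had -15.1, so its extremes were within the range of other blocks. These are orders of medians with no test of the differences between blocks.

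**Figure D4:**
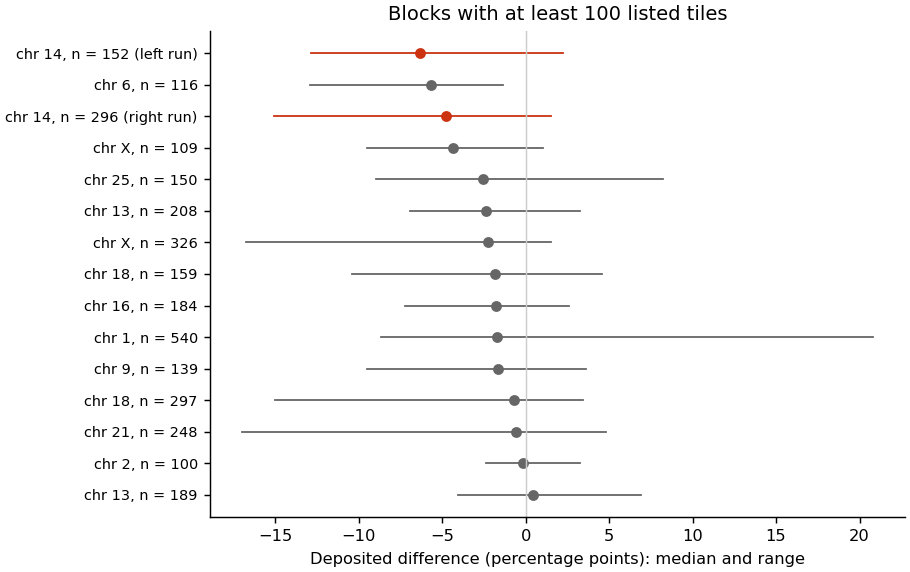
Median (point) and range (line) of the deposited difference in pp for the 15 blocks with at least 100 listed tiles, ordered by median, with the chromosome and number of tiles n on the vertical axis. The left run (-6.32) and right run (-4.75), in red, have the lowest and the 3rd lowest median.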

How the data were processed

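EM-seq libraries of 12 sperm samples were compared by the authors. Trimmomatic, Bismark and methylKit are named in the submitters' processing notes, with neither versions nor settings. For each tile the deposited table holds, per the file headers, the methylation difference, its p-value and q-value, and the closest annotated feature. No column holds the values of a single sample, so depth and the precision per sample are unknown, and the groups were not tested anew. Counts, medians and shares were computed from the deposited values. Calls used a q under 0.05 and a size of at least 10 percentage points. Regions join called tiles of one sign that lie within 1000 bp, and blocks join listed tiles that lie within 50000 bp. Gaps run from the nearest edge of a tile to the nearest edge of the feature, and introns with the start above the end had their edges swapped. The members and the thresholds were chosen with earlier results of these data known. The text names every gene with a called tile, the other annotated units of the block, the extremes of each run and the called regions. Alternatives covered the threshold, p in place of q, merging, and the counting of overlapping tiles. The joining and picking of tiles was tested on simulated data. The simulated runs were unbroken, of one sign each and more than 1000 bp apart. Joining across shorter gaps and parting close tiles of opposite sign were therefore not tested. No sequence was read, because no genome of the build was used here. Computation used Python 3.11.15, NumPy 2.4.6, pandas 2.3.3 and matplotlib 3.10.9.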

Additional observations from a re-analysis of the deposited data

How the results depend on the processing

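The number of called tiles depended on the minimum difference. At 5 percentage points it was 235 in place of 49 for the block, 99 in place of 23 for the left run and 136 in place of 26 for the right run, and at 15 percentage points it was 3, 0 and 3. With q under 0.001 or with the deposited p under 0.05 in place of q, these counts stayed at 49, 23 and 26. They had no room to change. Every tile of at least 10 percentage points was called, at a q of at most 4.36e-14, and each also had a p under 0.05. At 5 percentage points the 12 called regions became 25, and the 12 called tiles that share no base became 62. Joining only overlapping or touching called tiles gave 15 regions, and joining those within 5000 bp gave 8. Restricting to tiles that share no base lowered the number of negative tiles from 435 to 120 in either direction of picking, because only 122 tiles were left. Of 2 alternatives chosen after seeing the data, leaving out the locus with the most called tiles gave 15 called tiles for the left run (without 13625401 to 13630300), 14 for the right run (without 13782401 to 13794200) and, without the latter, 37 for the block. Counting neighbouring tiles of identical values once gave 42 for the block. The median difference of the block lay between -5.39 and -5.10 percentage points under the 4 alternatives tried for it. Leaving out single samples was not run, because the table holds no values per sample. No paired analysis was possible because the table gives no column per sample and the title numbers of the groups do not repeat. The depth behind each tile is unknown, so it cannot be said which differences it could not show.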

Other observations

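In 373 of the 448 tiles of the chromosome 14 block the deposited q lay below the deposited p, and the same held for 5007 of all 7290 listed tiles. A p under 0.05 was deposited for 400 tiles of the block and a q under 0.05 for 434, so 34 tiles passed on q alone. None of the called tiles was among them, since all 49 also had a p under 0.05.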
